A study of Mus musculus with 8 samples.

Results

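A set of 9 genes that control mRNA translation and storage in germ cells were followed in whole mouse testes taken 12 days after birth (P12). They were selected by symbol as the members of 4 families of RNA-binding proteins, namely *Cpeb1*, *Cpeb2*, *Cpeb3* and *Cpeb4* (cytoplasmic polyadenylation element binding proteins), *Patl1* and *Patl2* (PAT1 homologues), *Dazl* and *Boll* (the DAZ family) and *Ybx2* (a Y-box protein). The 9 members stood among 40840 genes in the count tables, and all 9 were among the 19104 genes with enough reads to be tested. RNAseq was carried out on 4 wild type and 4 *Tra2b-cPEko* testes, each from a separate mouse and each given a letter from A to D, all on a C57BL/6J background (C57/BL6 in the labels). *Tra2b* encodes a splicing regulator and contains a poison exon (PE), an ultra-conserved exon with stop codons whose inclusion prevents production of full-length protein. The wild type animals had the genotype Tra2bPE fl/+, so they carried 1 floxed PE allele and no Cre. The *Tra2b-cPEko* animals had the genotype Tra2b fl/-;Vasa-Cre, with 1 PE allele already deleted and the other removed by a Cre recombinase that is active in germ cells from before birth. The somatic cells of these testes therefore still held 1 floxed PE allele, and some germ cells may have escaped recombination. The genotypes were compared to ask what loss of the PE does to gene expression while the first wave of germ cells goes through meiotic prophase.

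Germ cells make many mRNAs well before the proteins are needed, and keep them silent in the meantime. CPEB proteins bind a short uridine-rich element in the 3′ UTR of such mRNAs and recruit a cytoplasmic poly(A) polymerase or a repressor, so that the length of the poly(A) tail sets the timing of translation. CPEB1 is required in mice for spermatocytes and oocytes to pass meiotic prophase, where it acts on mRNAs of the synaptonemal complex. DAZL licenses germ cells for differentiation and binds the 3′ UTR of many germ cell mRNAs, BOLL acts later, YBX2 packages and stores mRNAs from the spermatocyte stage onwards, and PATL1 links repressed mRNAs to decapping in P-bodies while PATL2 is its germ cell relative.

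The libraries held 36757386 to 59101569 reads assigned to genes. *Tra2b* itself was at 156 to 176 CPM in wild type and 190 to 209 CPM in *Tra2b-cPEko*, a count over the whole gene that cannot show the deleted exon. For *Tra2b* the adjusted p was 0.0552 in edgeR, so not under 0.05, and 1.95e-04 in DESeq2. Its paralogue *Tra2a* was at 111 to 144 CPM in wild type and 65.1 to 73.2 CPM in *Tra2b-cPEko* (edgeR adjusted p = 0.0023), so both genes separated all 8 mice by label. The 8 spermatid markers had a summed level of 2.90 to 3.30 CPM in wild type and 3.11 to 4.07 CPM in *Tra2b-cPEko*, most of it from *Spaca1* (2.46 ± 0.207 and 3.13 ± 0.321 CPM, with no overlap), and 3 of the 8 (*Prm2*, *Tnp2* and *Catsper1*) had 0 reads in all 8 mice, while markers of leptotene and zygotene spermatocytes were abundant (summed level 1841 to 2558 CPM (read counts scaled to library size) in wild type and 1965 to 2053 CPM in *Tra2b-cPEko*). Markers of pachytene spermatocytes had a summed level of 230 to 428 CPM in wild type and 250 to 315 CPM in *Tra2b-cPEko*. They were uneven among the wild type mice. The mean log2 CPM of the 11 tested genes of 12 pachytene markers was 3.71 in wild type mouse A and 3.77 in mouse B, against 2.54 in mouse C and 2.83 in mouse D. The 4 *Tra2b-cPEko* mice lay between 2.51 and 3.05. Wild type mice A and B therefore stood apart from the other 6 mice. Log2 fold changes of the members are given with and without them, a choice made after seeing the data. The part of germ cell stage in the values below was not tested, and in whole testis fewer cells of a type cannot be told apart from less RNA per cell. Macrophage markers had a summed level of 129 to 152 CPM in wild type and 155 to 186 CPM in *Tra2b-cPEko*. By log2 fold change, 9 of 9 were above 0. Those of differentiating spermatogonia had 997 to 1101 CPM and 870 to 972 CPM respectively, with 8 of 8 genes below 0. Of all genes tested, 50.3% were below 0. Above 0 were 7 of 7 endothelial, 8 of 9 peritubular and stromal and 5 of 7 Leydig cell genes. Below 0 were 5 of 5 red blood cell, 7 of 11 Sertoli cell and 7 of 12 undifferentiated spermatogonia genes. Of these markers, edgeR called *Sohlh1* (lower, adjusted p = 0.0341). DESeq2 called it too, with *Ccnd2* (lower) and *Csf1r*, *Cx3cr1* and *Lhcgr* (higher).

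Across the 9 members, *Cpeb1* and *Patl2* were lower in *Tra2b-cPEko* testes, *Cpeb4* was slightly higher, and the other 6 members differed little or varied as much within the wild type group as between genotypes. No member had an adjusted p under 0.05 (edgeR, quasi-likelihood F test, Benjamini-Hochberg over all genes), a call made for 0.157% of the genes tested. By DESeq2, 2 members (*Cpeb1* and *Patl2*) passed, against 2.79% of all genes. At an unadjusted edgeR p under 0.05 there were 3 members against 15.3% of all genes, with 2 lower (*Cpeb1* and *Patl2*, 7.07% of all genes) and 1 higher (*Cpeb4*, 8.22%). The genotypes did not overlap for 1 member, *Patl2*, as for 8.54% of all genes. The log2 fold change (*Tra2b-cPEko* minus wild type) was below 0 for 6 of 9 members, against 50.3% of all genes, with a median of -0.13 among the members and -0.00 among all genes tested.

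**Figure D1:**
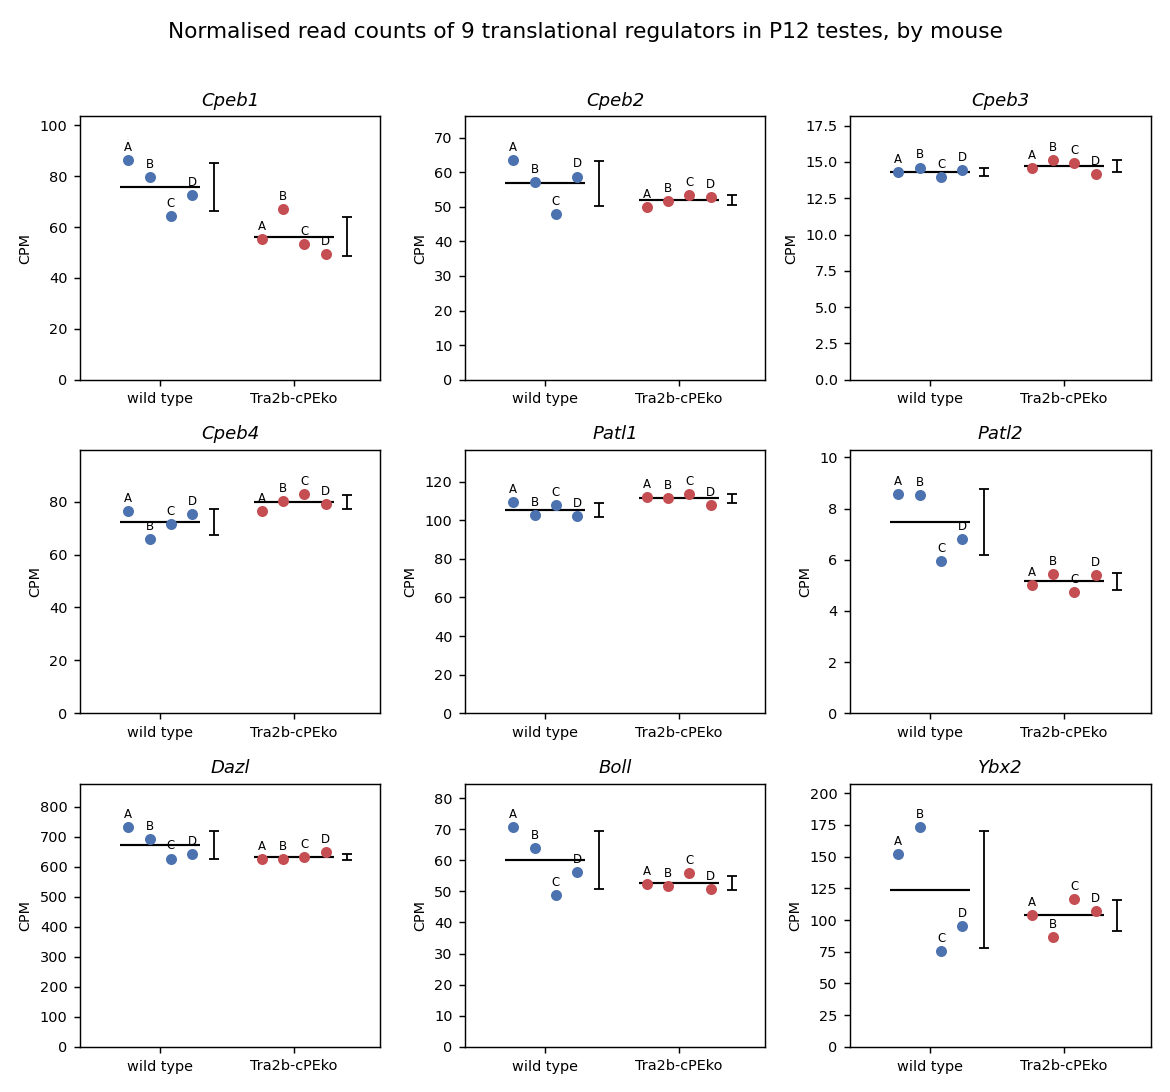
Normalised read count (CPM, vertical axis starting at 0) of each member in each mouse, with wild type in blue and *Tra2b-cPEko* in red. Letters name the mice, horizontal lines are group means and bars are 1 SD (n = 4 mice per genotype). *Patl2* alone shows no overlap between genotypes, and *Ybx2* shows the widest spread within wild type.

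*Cpeb1*, the founding CPEB gene and the one needed for meiotic prophase, lies on the minus strand at chr7:80996774-81105213 (GRCm39). Its normalised read count was 86.3 CPM in wild type mouse A, 79.6 in B, 64.2 in C and 72.8 in D. In *Tra2b-cPEko* it was 55.3 CPM in mouse A, 67.0 in B, 53.4 in C and 49.4 in D. *Tra2b-cPEko* mice A, C and D lay below every wild type mouse, and mouse B lay just above wild type mouse C. The means were 75.7 ± 9.43 and 56.3 ± 7.54 CPM (SD, n = 4), a log2 fold change of -0.43 ± 0.11 (SE). This difference had an adjusted p of 0.14 in edgeR (unadjusted p = 0.0031) and an adjusted p of 0.0057 in DESeq2. The two-sided exact permutation test gave p = 0.0571, where the smallest p that 4 mice against 4 can give is 0.0286. *Cpeb1* is also among the genes the study singled out on these same samples, so its direction here is not independent evidence.

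*Patl2* lies on the minus strand at chr2:121950589-122016689 (GRCm39) and was among the least abundant members, with 199 to 403 reads per library. It reached 8.57 CPM in wild type mouse A, 8.52 in B, 5.95 in C and 6.83 in D. The *Tra2b-cPEko* mice had 5.03, 5.45, 4.72 and 5.42 CPM in A to D. Every *Tra2b-cPEko* mouse was thus below every wild type mouse, although wild type mouse C came close to the nearest of them. The means were 7.47 ± 1.29 and 5.16 ± 0.345 CPM (SD, n = 4) and the log2 fold change -0.53 ± 0.12 (SE), the largest in size among the members. Its adjusted p was 0.101 in edgeR (unadjusted p = 9.2e-04) and 0.00922 in DESeq2, and the exact permutation p was 0.0286, the smallest possible. The annotated span of *Patl2* crosses *B2m* and *Trim69* on the other strand, but shares 0 exonic bases with either. *B2m* differed in the opposite direction (92.8 ± 5.21 CPM in wild type and 103 ± 13.9 in *Tra2b-cPEko*, adjusted p = 0.404 in edgeR).

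Leaving out wild type mice A and B brought the log2 fold change of *Cpeb1* to -0.28 ± 0.12 (SE, edgeR adjusted p = 0.472) and that of *Patl2* to -0.31 ± 0.12 (adjusted p = 0.41), with only 2 wild type mice left. With the pachytene marker mean as a covariate over all 8 mice, the values were -0.34 ± 0.12 (edgeR adjusted p = 0.285) and -0.37 ± 0.11 (adjusted p = 0.162). Both genes remained lower under each of these fits, but by less. Without wild type mice A and B the log2 fold change was -0.04 for *Cpeb2*, 0.05 for *Cpeb3*, 0.12 for *Cpeb4* and 0.09 for *Patl1*. The DESeq2 call of *Cpeb1* held in 6 of 8 fits that left out 1 mouse each and that of *Patl2* in 4 of 8. Neither gene was called by DESeq2 without wild type mouse A or without *Tra2b-cPEko* mouse C, and *Patl2* was also not called without wild type mouse B or *Tra2b-cPEko* mouse A.

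**Figure D2:**
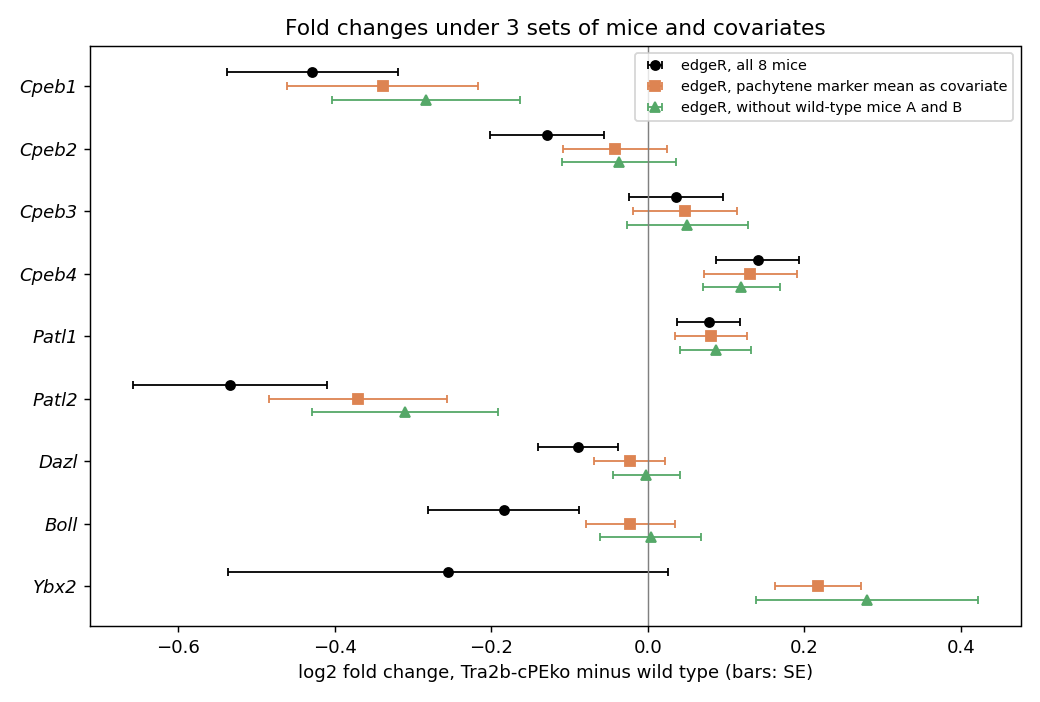
The log2 fold change of each member (*Tra2b-cPEko* minus wild type, horizontal axis, bars SE) from edgeR with all 8 mice (black circles), with the pachytene marker mean as covariate (orange squares) and without wild type mice A and B (green triangles). *Cpeb1* and *Patl2* stay below 0 in all 3 fits, while *Ybx2* moves from -0.26 to 0.22 and 0.28.

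Since *Cpeb1* and *Patl2* were the members with the largest differences, and varied together over the 8 mice (Pearson r = 0.90 of log2 CPM over points that share libraries and stage make-up), their promoters are shown here from RefSeq (GRCm38.p6), from 250 bases before to 50 bases after the annotated start, 5′ to 3′ on the coding strand. Capitals mark matches, on either strand, to 4 motifs searched, namely CACGTG (the E-box), TTCCCGCC (an E2F type site), CNCCTCAG (the motif bound by the meiotic initiator STRA8) and TATAAA.
Cpeb1 (chr7:81454709-81455008, minus strand): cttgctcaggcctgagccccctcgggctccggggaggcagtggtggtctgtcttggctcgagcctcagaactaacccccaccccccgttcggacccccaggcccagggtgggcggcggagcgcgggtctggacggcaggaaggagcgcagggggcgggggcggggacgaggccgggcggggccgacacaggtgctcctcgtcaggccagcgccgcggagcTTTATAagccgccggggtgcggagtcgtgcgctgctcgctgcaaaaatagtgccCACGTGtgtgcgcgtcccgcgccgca
Patl2 (chr2:122186140-122186439, minus strand): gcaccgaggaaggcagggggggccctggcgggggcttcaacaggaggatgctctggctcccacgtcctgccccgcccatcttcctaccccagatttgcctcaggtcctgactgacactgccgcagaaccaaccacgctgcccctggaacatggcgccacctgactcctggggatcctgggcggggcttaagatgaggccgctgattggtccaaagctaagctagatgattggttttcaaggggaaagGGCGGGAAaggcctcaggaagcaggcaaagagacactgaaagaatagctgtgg
The *Cpeb1* window holds 33 CpG pairs, with an E-box 24 bases after the start and a TATAAA match on the opposite strand 30 bases before it. The *Patl2* window holds 10 CpG pairs and a TTCCCGCC match on the opposite strand, 3 bases before the start. These matches are not shared by both genes. Among 32851 RefSeq mouse promoters of the same length the median was 7 CpG pairs, and 7.15% held CACGTG, 2.19% TTCCCGCC, 7.94% CNCCTCAG and 13.6% TATAAA. The table held 12 windows for 8 of the 9 members, of which those of *Dazl* and *Cpeb4* and 1 of those of *Ybx2* hold CNCCTCAG, 1 of those of *Boll* and that of *Patl1* hold TTCCCGCC, and another of *Boll* holds CACGTG. A match is a run of letters and not a measured site.

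The remaining CPEB genes encode a more closely related group that binds similar elements and serves partly different mRNAs. Over the 8 mice, Pearson r of their log2 CPM with that of *Cpeb1* was 0.69 for *Cpeb2*, -0.03 for *Cpeb3* and -0.55 for *Cpeb4*, and whether their differences between genotypes departed from that of *Cpeb1* was not tested. *Cpeb2* (chr5:43390513-43447068, plus strand, GRCm39) gave 63.5, 57.1, 47.9 and 58.8 CPM in wild type mice A to D and 49.9, 51.7, 53.4 and 52.7 in *Tra2b-cPEko*. The *Tra2b-cPEko* mice all lay within the wild type range, and the log2 fold change was -0.13 ± 0.07 (SE, edgeR adjusted p = 0.419). *Cpeb3* (chr19:36996743-37186000, minus strand) was the steadiest member, at 14.3, 14.6, 14.0 and 14.5 CPM in wild type and 14.6, 15.1, 14.9 and 14.2 in *Tra2b-cPEko*. Its log2 fold change was 0.04 ± 0.06 (SE, edgeR adjusted p = 0.817). *Cpeb3* shares 4.25% of its annotated exonic bases with *Marchf5* on the other strand. *Marchf5* was at 101 ± 5.82 CPM in wild type and 92.8 ± 1.68 CPM in *Tra2b-cPEko* (edgeR adjusted p = 0.273). *Cpeb4* (chr11:31821811-31885634, plus strand), which in other cells acts after CPEB1 during meiotic divisions, had 76.5, 65.8, 71.5 and 75.5 CPM in wild type and 76.5, 80.4, 83.0 and 79.2 in *Tra2b-cPEko*. Only mouse A of each genotype kept its groups from separating, both at 76.5 CPM. The means were 72.3 ± 4.85 and 79.8 ± 2.67 CPM (SD, n = 4), a log2 fold change of 0.14 ± 0.05 (SE) that was not called by edgeR (unadjusted p = 0.0204, adjusted p = 0.252) or DESeq2 (adjusted p = 0.197).

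A ratio of counts within a library does not depend on how libraries are scaled. *Cpeb1* counts amounted to 55.9%, 57.9%, 48.2% and 48.9% of the summed *Cpeb2*, *Cpeb3* and *Cpeb4* counts in wild type mice A to D. In *Tra2b-cPEko* the ratio was 39.2%, 45.5%, 35.3% and 33.8%. The genotypes did not overlap, although *Cpeb1* alone did, and the means were 52.7 ± 4.88% and 38.4 ± 5.21% (SD, n = 4), a log2 difference of -0.46 that ranged from -0.54 to -0.40 when each mouse was left out in turn. The summed genes had log2 fold changes of -0.13 (*Cpeb2*), 0.04 (*Cpeb3*) and 0.14 (*Cpeb4*), against -0.43 for *Cpeb1*. The ratio therefore joins a lower *Cpeb1* with a slightly higher *Cpeb4*. These ratios were not tested.

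*Patl1*, the widely expressed member of the PAT1 pair (chr19:11889673-11922458, plus strand, GRCm39), was high and even. It gave 109, 103, 108 and 102 CPM in wild type mice A to D and 112, 112, 114 and 108 CPM in *Tra2b-cPEko*. Wild type mouse A fell within the *Tra2b-cPEko* range, at its lower end, and the other 3 wild type mice lay below it. The log2 fold change was 0.08 ± 0.04 (SE, edgeR adjusted p = 0.387). *Patl2* counts were 7.85%, 8.29%, 5.53% and 6.68% of *Patl1* counts in wild type and 4.50%, 4.88%, 4.16% and 5.02% in *Tra2b-cPEko*, with no overlap. The means were 7.09 ± 1.24% and 4.64 ± 0.39% (SD, n = 4), a log2 difference of -0.60.

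**Figure D3:**
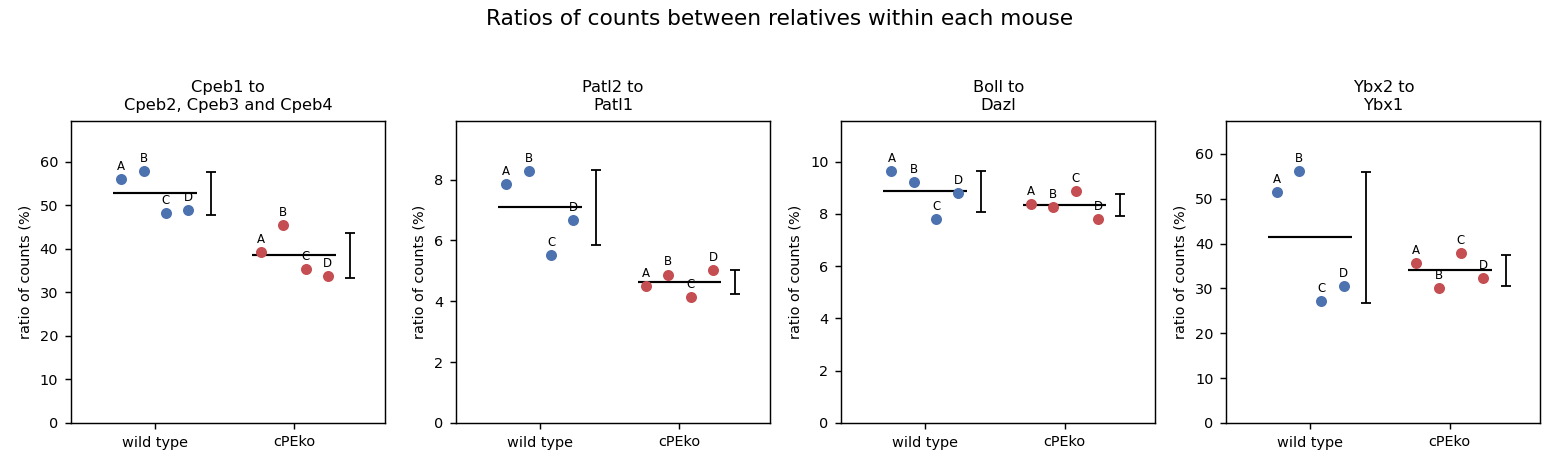
Ratio of counts between relatives within each library, in percent (vertical axes starting at 0), for wild type (blue) and *Tra2b-cPEko* (red), with letters naming the mice, lines the means and bars 1 SD (n = 4 mice per genotype). The ratios of *Cpeb1* to its 3 relatives and of *Patl2* to *Patl1* do not overlap between genotypes, whereas those of *Boll* to *Dazl* and *Ybx2* to *Ybx1* do.

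Both DAZ family genes and *Ybx2* followed the 2 wild type mice that stood apart. *Dazl* (chr17:50586366-50600664, minus strand, GRCm39), a marker of germ cells in general, had 731, 692, 628 and 641 CPM in wild type mice A to D and 625, 626, 632 and 648 CPM in *Tra2b-cPEko*. Wild type mice C and D lay among the *Tra2b-cPEko* mice. For *Dazl* the log2 fold change was -0.09 ± 0.05 (SE, edgeR adjusted p = 0.427) and came to -0.00 without wild type mice A and B. *Boll* (chr1:55283803-55402950, minus strand), which shares 38.2% of its annotated exonic bases with *Mars2* on the other strand, had 70.5, 64.0, 48.9 and 56.4 CPM in wild type and 52.4, 51.8, 56.0 and 50.7 CPM in *Tra2b-cPEko*. Its log2 fold change of -0.18 ± 0.10 (SE, edgeR adjusted p = 0.393) became 0.00 without wild type mice A and B. *Mars2* itself was at 11.1 ± 0.478 CPM in wild type and 12.3 ± 1.18 CPM in *Tra2b-cPEko* (adjusted p = 0.435).

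*Ybx2* (chr11:69826474-69832432, plus strand, GRCm39) varied most of all members among the wild type mice. Its level was 152, 173, 75.4 and 95.4 CPM in wild type mice A to D and 104, 86.9, 116 and 107 CPM in *Tra2b-cPEko*. All 4 *Tra2b-cPEko* mice fell in the gap between wild type mouse C and wild type mice A and B. The means of 124 ± 46.0 and 104 ± 12.3 CPM (SD, n = 4) gave a log2 fold change of -0.26 ± 0.28 (SE, edgeR adjusted p = 0.71). The direction turned to 0.22 ± 0.06 with the pachytene marker mean as covariate (edgeR adjusted p = 0.0948) and to 0.28 ± 0.14 without wild type mice A and B (adjusted p = 0.551). *Ybx2* shares 30.5% of its exonic bases with *Eif5a* and 10.6% with *Slc2a4* on the other strand, and whether the reads were counted by strand is not given in the sources used here. *Eif5a*, with 463 ± 16.5 CPM in wild type and 446 ± 13.9 CPM in *Tra2b-cPEko*, did not show this spread.

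*Boll* counts were 8.87 ± 0.796% of *Dazl* counts in wild type and 8.33 ± 0.428% in *Tra2b-cPEko* (SD, n = 4), with overlapping ranges. Those of *Ybx2* were 41.4 ± 14.6% of the counts of *Ybx1*, its somatic relative, and 34.0 ± 3.44%, again overlapping. Set against *Dazl* as a measure of germ cell RNA, a ratio added after seeing the data, *Cpeb1* gave 11.8%, 11.5%, 10.2% and 11.3% in wild type and 8.84%, 10.7%, 8.45% and 7.62% in *Tra2b-cPEko*, where only *Tra2b-cPEko* mouse B overlapped the wild type range. *Patl2* gave 1.17%, 1.23%, 0.949% and 1.06% of *Dazl* in wild type and 0.805%, 0.87%, 0.747% and 0.836% in *Tra2b-cPEko*. These last values did not overlap, with a log2 difference of -0.43. The mean ratio to *Dazl* was therefore lower in *Tra2b-cPEko* for both genes. *Dazl* is itself a member and followed the pachytene marker mean over the 8 mice (r = 0.90). These ratios are thus not free of germ cell stage, and the part of germ cell share was not tested.

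The members differed in how closely they followed the pachytene markers from mouse to mouse. Over the 8 mice, which share libraries and group differences, Pearson r of log2 CPM with the pachytene marker mean was 0.95 for *Ybx2*, 0.94 for *Boll* and 0.90 for *Dazl*. It was 0.78 for *Patl2*, 0.77 for *Cpeb2* and 0.63 for *Cpeb1*, and -0.00 for *Cpeb3*, -0.32 for *Patl1* and -0.45 for *Cpeb4*. *Boll* was at 67.3 CPM in mice A and B, 52.6 in mice C and D and 52.7 in *Tra2b-cPEko*, so that wild type mice C and D were level with the *Tra2b-cPEko* mean. *Cpeb1* was at 82.9, 68.5 and 56.3 CPM and *Patl2* at 8.54, 6.39 and 5.16 CPM in the same groups. Both means were thus lower again in *Tra2b-cPEko* than in wild type mice C and D. This split of the wild type mice was chosen after seeing the data. For *Cpeb1* the single mice overlapped, with *Tra2b-cPEko* mouse B (67.0 CPM) above wild type mouse C (64.2 CPM). Whether these differences go beyond germ cell stage was not tested.

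**Figure D4:**
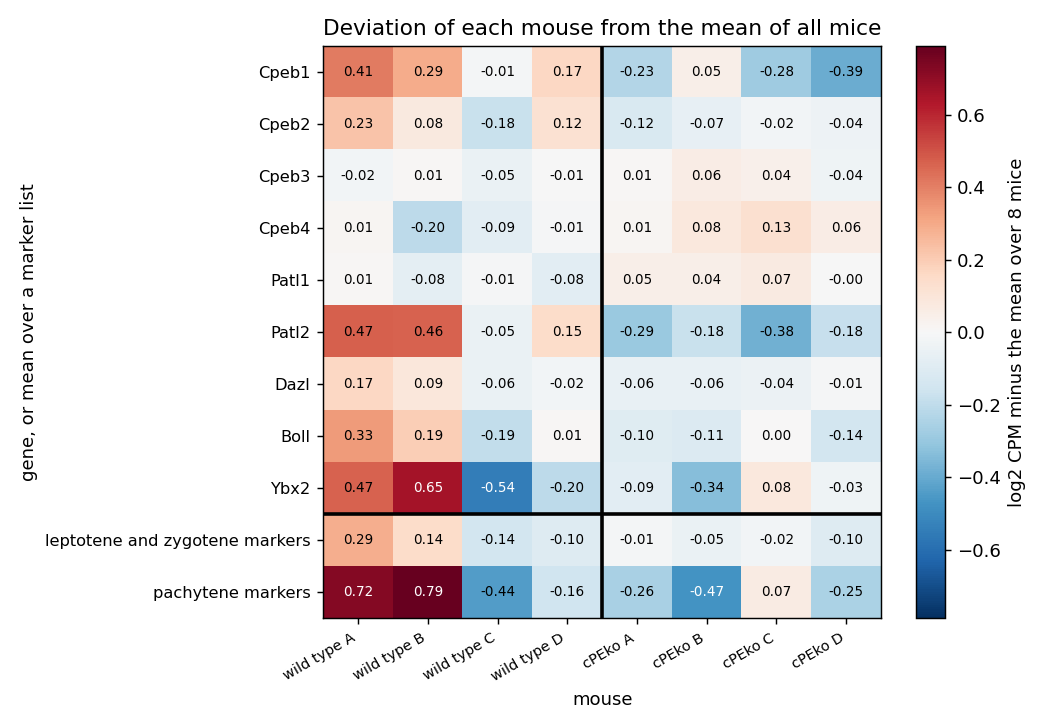
Log2 CPM of each member in each mouse (columns) minus its mean over 8 mice (rows), in red where above and blue where below, with the same for the mean of the leptotene and zygotene markers and of the pachytene markers under the horizontal line. Wild type mice A and B are high in *Ybx2*, *Boll*, *Dazl*, *Cpeb1*, *Patl2* and both marker lists, while *Cpeb3*, *Cpeb4* and *Patl1* are close to their mean in mouse A. In wild type mouse B, *Cpeb3* is at 0.01, *Patl1* at -0.08 and *Cpeb4* at -0.20.

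The genes whose log2 CPM was most like that of each member over the 8 mice differed between members. For *Cpeb1* they were *Rrm2* (a ribonucleotide reductase subunit, r = 0.995), *Stag3* (the meiotic cohesin subunit, r = 0.991) and *Tle7* (r = 0.989). *Patl2* was most like *Cpsf4l*, *Rfc2* and *Abcb6* (r = 0.989, 0.989 and 0.988). For *Ybx2* the first were *Crat*, *Hdgfl1* and *Cntd1* (r = 0.995, 0.993 and 0.992), the last of which encodes a factor of meiotic crossover formation. *Boll* was nearest to *Hormad2* (r = 0.984), which codes for a meiotic chromosome axis protein, then to *Ccdc117* (r = 0.983) and *Gm34595* (r = 0.982). *Dazl* was nearest to *Rbl1*, *Cep70* and *Cct6b* (r = 0.988, 0.978 and 0.975). *Cpeb2* had *Wdr41*, *Fnta* and *Zfp367* (r = 0.983, 0.961 and 0.952), and *Cpeb3* had *Itpk1*, *Carmn* and *Gm23908* (r = 0.962, 0.959 and 0.945). For *Cpeb4* the nearest were *Slc7a11*, *Gm52119* and *Itih3* (r = 0.973, 0.971 and 0.969) and for *Patl1* they were *L1td1*, *LOC118567958* and *Heatr5b* (r = 0.976, 0.972 and 0.960). Some of these genes were near the floor. The mean level was 0.249 CPM for *LOC118567958*, 0.257 for *Gm23908* and 0.447 for *Gm34595*. It was 0.758 CPM for *Cpsf4l*, 0.835 for *Gm52119* and 0.892 for *L1td1*, against 341 for *Stag3* and 60.3 for *Rrm2*. At such low levels counting noise makes up much of the pattern over mice. Each r is among the 3 highest of 19104 genes over 8 points and is a description only. Among the members themselves the closest pairs were *Dazl* with *Boll* (r = 0.92), *Cpeb1* with *Patl2* (0.90) and *Cpeb2* with *Boll* (0.90).

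To compare levels between genes, CPM values were also divided by the length of the annotated exons in kilobases (RPKM). *Dazl* was the most abundant member in wild type at 174 ± 12.3 RPKM (SD, n = 4), followed by *Ybx2* at 54.1 ± 20.1 and *Patl1* at 21.9 ± 0.737. *Cpeb1* at 12.0 ± 1.49 and *Cpeb4* at 10.7 ± 0.717 RPKM came next and overlapped each other, as did *Cpeb2* at 7.03 ± 0.808 and *Boll* at 5.98 ± 0.934. *Patl2* at 3.04 ± 0.528 and *Cpeb3* at 1.46 ± 0.0282 RPKM were lowest. In *Tra2b-cPEko* the means were 163 RPKM for *Dazl*, 45.2 for *Ybx2*, 23.1 for *Patl1*, 11.8 for *Cpeb4*, 8.91 for *Cpeb1*, 6.43 for *Cpeb2*, 5.26 for *Boll*, 2.10 for *Patl2* and 1.50 for *Cpeb3*. On this scale *Cpeb1* (7.82 to 10.6 RPKM) lay below *Cpeb4* (11.3 to 12.3 RPKM) in *Tra2b-cPEko*, whereas the 2 overlapped in wild type. The order depends on the length used. With the length of the canonical transcript, *Boll* stood between *Ybx2* and *Patl1* in wild type at 68.0 ± 10.6 RPKM, since its canonical transcript has 882 bases and its union of exons 10021, and *Cpeb1* was at 21.9 ± 2.73 and 16.3 ± 2.18 RPKM in the genotypes, above *Cpeb4* (10.8 and 11.9 RPKM) in both.

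**Figure D5:**
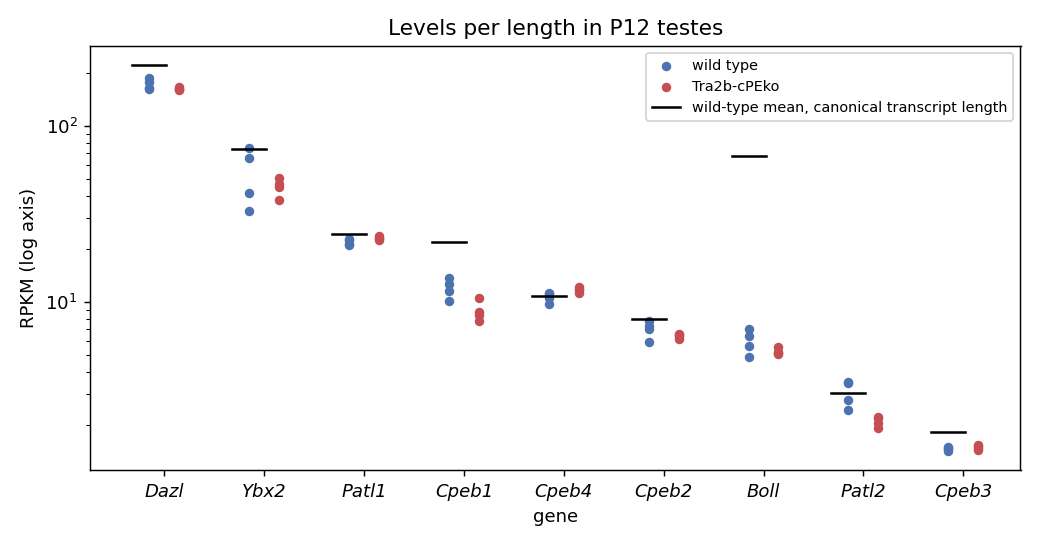
Level per length of each member in each mouse (RPKM from the union of exons, log axis), with wild type in blue and *Tra2b-cPEko* in red, in the order of the wild type mean. Short black lines give the wild type mean with the canonical transcript length, which lifts *Boll* from 5.98 to 68.0 RPKM and changes the other members by less.

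The partners of these proteins had smaller log2 fold changes than *Cpeb1* and *Patl2*, and none of them was called by edgeR or DESeq2. Such calls were made for 0.157% of all genes by edgeR and 2.79% by DESeq2, so 0 in short lists says little. The largest log2 fold change in these lists was that of *Nanos2*, at -0.39 ± 0.23 (SE) with 21 to 50 reads per library. Of 15 cytoplasmic polyadenylation partners, the factors that lengthen or shorten poly(A) tails with CPEB proteins, 11 had a log2 fold change below 0 (median -0.05) and 1 had an unadjusted edgeR p under 0.05. That gene was *Tacc3*, which encodes the maskin homologue and had 89.0 ± 5.01 CPM in wild type and 82.1 ± 2.33 CPM in *Tra2b-cPEko*, a log2 fold change of -0.12 ± 0.05 (SE). The next smallest p belonged to *Cpsf2*, a subunit of the cleavage and polyadenylation factor, at 107 ± 4.65 and 112 ± 1.66 CPM. *Pabpc1*, the major cytoplasmic poly(A)-binding protein, had 782 ± 53.4 and 831 ± 54.9 CPM, and the scaffold gene *Sympk* 208 ± 11.0 and 207 ± 4.47 CPM.

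Of 16 decapping and P-body partners, with which PATL proteins assemble, 14 were below 0 (median log2 fold change -0.06) and 3 had an unadjusted p under 0.05, all of them lower. The smallest p was that of *Lsm3*, a subunit of the ring that binds PAT1 proteins and mRNA 3′ ends, with 61.0 ± 3.92 CPM in wild type and 54.1 ± 0.856 CPM in *Tra2b-cPEko* (log2 fold change -0.17 ± 0.05 SE, edgeR adjusted p = 0.16, DESeq2 adjusted p = 0.0557). *Lsm14b*, a germ cell repressor, had 141 ± 6.90 and 129 ± 3.78 CPM (log2 fold change -0.13 ± 0.05, edgeR adjusted p = 0.226). The helicase gene *Ddx6*, the most abundant of the list, was at 326 ± 33.7 and 325 ± 3.54 CPM and *Lsm14a* at 164 ± 2.51 and 159 ± 5.28 CPM.

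The 12 deadenylase genes, which encode the enzymes that shorten poly(A) tails and their scaffolds, had a median log2 fold change of -0.03 and 0 with an unadjusted p under 0.05. *Cnot1*, the scaffold of the complex, was at 606 ± 33.5 CPM in wild type and 626 ± 37.9 CPM in *Tra2b-cPEko*, and the catalytic subunit gene *Cnot7* at 211 ± 6.34 and 206 ± 4.71 CPM. The smallest p values were those of *Cnot10* and *Cnot9*, with log2 fold changes of -0.08 and -0.06.

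Of 22 other translational regulators of germ cells, 21 were tested (*Zar1*, an oocyte gene, was too low), with a median log2 fold change of -0.04 and 3 with an unadjusted p under 0.05, all lower. *Ybx3*, another Y-box gene of the testis, had 78.5 ± 6.32 CPM in wild type and 68.9 ± 4.83 CPM in *Tra2b-cPEko*, a log2 fold change of -0.19 ± 0.07 (SE, edgeR adjusted p = 0.219). *Lin28b*, which blocks maturation of let-7 microRNAs, had 45.6 ± 1.96 and 41.2 ± 2.11 CPM (-0.15 ± 0.05, edgeR adjusted p = 0.235), with no overlap between genotypes. *Ybx1* at 298 ± 15.6 and 304 ± 20.7 CPM and *Fxr2* at 261 ± 10.9 and 258 ± 4.72 CPM were the most abundant of the list.

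Of 8 mRNAs known to be bound by the members, *Prm1*, *Prm2* and *Mos* were too low to be tested, which left 5, all below 0 (median log2 fold change -0.08). *Tex19.1*, a germ cell gene whose mRNA is a DAZL target, had 80.1 ± 4.31 CPM in wild type and 73.1 ± 1.96 CPM in *Tra2b-cPEko* with no overlap (log2 fold change -0.13 ± 0.05 SE, edgeR adjusted p = 0.235). The DAZL target *Ddx4* had 245 ± 26.2 and 218 ± 7.62 CPM (-0.17 ± 0.07, edgeR adjusted p = 0.268). *Sycp1*, a synaptonemal complex gene whose mRNA CPEB1 binds, was at 314 ± 42.4 and 301 ± 21.8 CPM (-0.06 ± 0.09, edgeR adjusted p = 0.778). These values are mRNA levels and do not measure translation or poly(A) tail length. The shares of these lists below 0 stand beside 50.3% of all genes, and those with an unadjusted p under 0.05 in the lower direction beside 7.07%.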

How the data were processed

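RNA of whole P12 testes, from 4 mice per genotype, was sequenced after poly(A) selection with a stranded kit. The deposited files hold raw read counts per gene, 1 table per mouse, made by the authors, whose processing notes name HISAT2 2.2.1, SAMtools 1.7.1 and HTSeq 2.0.2 with GRCm39. The study's methods name Salmon, and whether counting used strand is not given in the sources used here. A further 5 summary lines per table were left out. They held 30.97% to 32.44% of read pairs in wild type and 32.74% to 33.58% in *Tra2b-cPEko*, with no overlap. The part of this difference in the values above was not tested. Counts over a whole gene cannot show the deleted exon, so the labels were not checked by the exon itself.

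Genes with too few counts were removed with filterByExpr (least count 10, least total 15), leaving 19104. Counts were scaled with TMM factors, which CPM values include, and tested with edgeR 4.0.16 (glmQLFTest, robust, genotype only) in R 4.3.3, with Benjamini-Hochberg adjustment over all genes tested. SE is the fold change divided by the root of F. The study used DESeq2, which was run as an alternative (version 1.42.0), as were limma-voom (limma 3.58.1), other scalings and filters, marker covariates, a replicate block and fits without each mouse. The scripts were tested on simulated counts. RPKM, gene positions and shared exonic bases used the exons of GENCODE vM39, whereas the study's methods name an NCBI annotation of GRCm39. The lengths and overlaps given here may therefore differ from those of the features on which reads were counted. Ratios and correlations were not tested.

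Members and lists were chosen with earlier results of these data known. Named genes are the 9 members, the genes most like each (3 per member), and per list those called, the 2 of smallest p and the 2 most abundant. *B2m*, *Mars2*, *Eif5a* and *Marchf5* were added after seeing the data because they overlap members. Same letters did not pair mice across genotypes, and replicates are separate mice, with no batch given. Precision is limited by 4 mice per genotype rather than by depth, with 2 possible exceptions. These are *Patl2* (199 to 403 reads per library) and *Cpeb3* (520 to 853 reads per library). The spread of *Cpeb3* between mice (CV 1.93% in wild type and 2.84% in *Tra2b-cPEko*) is no wider than counting noise at that depth.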

Additional observations from a re-analysis of the deposited data

How the results depend on the processing

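No member was called by edgeR with all 8 mice, and this stayed 0 under limma-voom, DESeq2 size factors, upper-quartile factors, a mean count of at least 50, no robust estimation, either marker covariate, without wild type mice A and B, and at a threshold of 0.1. The count was 1 without the low-count filter (*Patl2*, log2 fold change -0.54, adjusted p = 0.0428) and 2 with DESeq2 (*Cpeb1*, -0.43, adjusted p = 0.00567, and *Patl2*, -0.54, adjusted p = 0.00922). The replicate letters do not pair the mice (r between same letters from -0.14 to 0.12, with 1 of 4 letters closest to its own), and with the replicate block 1 member was called (*Cpeb1*, -0.43, adjusted p = 0.0498) and 67 genes in all. Leaving out 1 mouse gave 0 to 1 members by edgeR, where *Patl2* was called at -0.63 (adjusted p = 0.0382) without wild type mouse C and *Cpeb1* at -0.52 (adjusted p = 0.0498) without *Tra2b-cPEko* mouse B. Over these edgeR fits the log2 fold change ran from -0.52 to -0.36 for *Cpeb1* and from -0.63 to -0.46 for *Patl2*, both ends nearest 0 without wild type mouse A. DESeq2 without 1 mouse each gave 0 members without wild type A or *Tra2b-cPEko* C. Without wild type B or *Tra2b-cPEko* A it gave 1, *Cpeb1* at -0.41 and -0.42. Without wild type D, *Tra2b-cPEko* B and *Tra2b-cPEko* D it gave 2, *Cpeb1* at -0.45, -0.52 and -0.37 and *Patl2* at -0.58, -0.56 and -0.56. It gave 4 without wild type mouse C, where *Cpeb1* was at -0.50, *Patl2* at -0.63, *Cpeb2* at -0.20 (adjusted p = 0.0151) and *Boll* at -0.27 (adjusted p = 0.0177). *Ybx2* reversed to 0.22 with the pachytene covariate, 0.034 with the leptotene and zygotene covariate (edgeR adjusted p = 0.956) and 0.28 without wild type mice A and B, where *Boll* reversed to 0.0036. The other 7 members kept their direction in all 27 alternatives.

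Over all genes, the number called moved from 30 to 123 without the low-count filter, 58 with upper-quartile factors, 14 with a mean count of at least 50, 507 with DESeq2, 11 with limma-voom, 12 without robust estimation, 123 with the pachytene covariate, 53 with the leptotene and zygotene covariate, 1 without wild type mice A and B, 156 at a threshold of 0.1, and 3 to 84 when 1 mouse was left out. It was 84 without wild type mouse C and 3 without *Tra2b-cPEko* mouse D. The causes were not tested. Every ratio between relatives kept its direction when each mouse was left out in turn. In groups of 4 mice, 0 of 30 groups of member values and ratios held a mouse that stood apart by Dixon's test. By chance 1.5 groups would be expected to. That test looks for 1 mouse apart from the rest of its group. It can miss 2 that stand apart together, as wild type mice A and B did for *Ybx2*.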
